A study of Homo sapiens with 2 samples.

Results

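The genes described are 9 well-known transcriptional targets of TGF-beta, BMP and YAP signalling: ID1, ID2, ID3, SMAD6 and BAMBI, taken as targets of BMP through SMAD1 and SMAD5, and SMAD7, THBS1, CCN1 and CCN2, taken as targets of TGF-beta and YAP. They were picked by symbol, with earlier results of the same contrast known, from the 28038 genes of the deposited table, and all 9 were listed. Of these, 8 had at least 50 counts over both libraries, as did 14157 genes in all, which are called measured below; ID3 did not. The contrast is between 1 library from OVCAR-3 cells made to overexpress IGF2BP3 and 1 library from OVCAR-3 cells given a blank viral vector (control). OVCAR-3 is an established human ovarian carcinoma line, and IGF2BP3 is an RNA-binding protein that recognises m6A on transcripts and stabilises them. The promoter that drove the transgene, whether cells were a pool or a clone, and the time after transduction were not given in the sources used here. Each group is 1 library, so spread between cultures is unknown, no test was possible, and a difference is one between these 2 libraries.

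BMP ligands bind paired serine/threonine kinase receptors that phosphorylate SMAD1, SMAD5 and SMAD9, and TGF-beta and activins act likewise on SMAD2 and SMAD3; both kinds of SMAD enter the nucleus with SMAD4. The ID genes encode helix-loop-helix proteins that bind E proteins and keep them off DNA, and they are among the most direct BMP targets. SMAD6, SMAD7 and BAMBI are induced inhibitors that damp the pathways in a feedback loop. YAP and TAZ, which the Hippo kinases LATS1 and LATS2 hold in the cytoplasm, act on DNA through TEAD factors, and CCN1 and CCN2 are their standard readouts. Many of these genes answer to several inputs: SMAD7 also to BMP, and CCN2 and THBS1 to both TGF-beta and YAP.

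Promoter sequences are shown for the elements through which these pathways are known to act. RefSeq promoter windows on GRCh38.p14, from 250 bases before to 50 bases after a transcription start, were found for 8 of the 9 genes. They were searched on both strands for GGAATG, the core that TEAD factors bind; GTCTAGAC, the palindrome that SMAD3 and SMAD4 bind; GGCGCC, a GC-rich element linked to SMAD1 and SMAD5; and CAGAC, a SMAD half-site. These 4 words do not contain one another. The 5 windows below hold at least 1 of the first 3 words, and capitals mark every match of the 4.
CCN2, chr6:131951323-131951622, minus strand: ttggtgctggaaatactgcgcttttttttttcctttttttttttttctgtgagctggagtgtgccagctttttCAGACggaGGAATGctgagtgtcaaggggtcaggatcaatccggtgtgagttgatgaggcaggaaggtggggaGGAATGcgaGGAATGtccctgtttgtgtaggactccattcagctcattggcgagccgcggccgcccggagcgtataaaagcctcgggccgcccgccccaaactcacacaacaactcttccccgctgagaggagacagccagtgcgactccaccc
THBS1, chr15:39580829-39581128, plus strand: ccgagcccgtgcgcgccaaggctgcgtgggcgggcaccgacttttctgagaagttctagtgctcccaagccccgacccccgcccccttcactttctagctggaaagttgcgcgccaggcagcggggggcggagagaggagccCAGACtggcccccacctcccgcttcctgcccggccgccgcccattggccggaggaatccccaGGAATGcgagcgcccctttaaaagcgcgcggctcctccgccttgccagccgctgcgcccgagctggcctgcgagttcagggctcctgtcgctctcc
ID1, chr20:31605039-31605338, plus strand: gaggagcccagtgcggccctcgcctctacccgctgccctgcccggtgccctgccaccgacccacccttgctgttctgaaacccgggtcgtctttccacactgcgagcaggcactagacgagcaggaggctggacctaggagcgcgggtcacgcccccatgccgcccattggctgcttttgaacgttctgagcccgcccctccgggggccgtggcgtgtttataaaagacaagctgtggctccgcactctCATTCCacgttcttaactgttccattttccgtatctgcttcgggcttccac
SMAD6, chr15:66701986-66702285, plus strand: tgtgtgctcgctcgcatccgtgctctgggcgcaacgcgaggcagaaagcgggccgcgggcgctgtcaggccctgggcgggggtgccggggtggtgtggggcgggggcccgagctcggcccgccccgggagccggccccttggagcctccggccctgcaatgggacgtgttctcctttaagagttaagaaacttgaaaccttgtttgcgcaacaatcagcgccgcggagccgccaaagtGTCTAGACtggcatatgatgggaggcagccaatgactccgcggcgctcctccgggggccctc
BAMBI, chr10:28677271-28677570, plus strand: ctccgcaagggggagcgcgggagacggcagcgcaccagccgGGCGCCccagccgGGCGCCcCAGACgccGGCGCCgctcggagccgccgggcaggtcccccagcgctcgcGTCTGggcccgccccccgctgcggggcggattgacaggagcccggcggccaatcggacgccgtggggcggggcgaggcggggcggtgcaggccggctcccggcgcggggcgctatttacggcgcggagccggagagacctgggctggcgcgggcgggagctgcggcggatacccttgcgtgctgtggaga
The CCN2 window held 3 copies of GGAATG, which began 169, 104 and 95 bases before the start, and a CAGAC that began 177 bases before it. THBS1 had 1 GGAATG, 46 bases before the start, and ID1 had 1 on the opposite strand that spanned the start itself. Of all 35116 promoter windows, 14% held GGAATG. The SMAD6 window carried GTCTAGAC 12 bases before the start, a word found in 71 windows, 0.202% of all. BAMBI had 3 copies of GGCGCC between 209 and 176 bases before the start, a word in 19.2% of windows, and 2 of CAGAC, a word in 45.3%. The ID2 window held none of the 4 words. The ID3 window and 2 of the 3 SMAD7 windows, 1 for each annotated start, held CAGAC alone, and the other SMAD7 window held none. A match describes letters in the window and is no evidence of binding in these cells.

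Depth was 48017861 counts in the overexpression library and 43190215 in the control library. Libraries were scaled by TMM, a trimmed mean of gene-wise ratios, to counts per 1000000 (CPM). The overexpressed gene checked the labels: IGF2BP3 stood at 133 CPM in the overexpression library and 67.9 CPM in the control library, a ratio of 1.96 (counting interval 1.84 to 2.09). MALSU1 overlaps IGF2BP3 on the opposite strand, with 2110 counts in the overexpression library and 1874 in control, and reads of this pair may not be separate, since the counter's strand setting is not given in the sources used here. Markers of the labelled cell type were mostly low or not listed. The name OVCAR-3 is that of the labels, and the identity of the cells was not tested. Of 10 epithelial markers chosen, 8 were listed. Of these, 1 reached 10 CPM, the keratin KRT18, at 102 CPM in the overexpression library and 103 CPM in control. CDH1, the epithelial cadherin, had 2 counts in either library. Of 9 markers of ovarian serous carcinoma chosen, only 4 were listed. All 4 were below 10 CPM, among them PAX8 with 32 counts in the overexpression library and 28 in control. The listed fibroblast markers summed to 9.38 CPM in the overexpression library and 10.7 CPM in control, the endothelial ones to 0.0836 CPM in overexpression and 0.0462 CPM in control, and the leukocyte ones to 0.167 CPM in overexpression and 0.0923 CPM in control. Fewer cells of a type and less RNA per cell cannot be told apart in such bulk libraries. Shorter genes tended to be slightly lower in the overexpression library: the median log2 ratio was -0.03 in the shortest of 20 length classes and 0.08 in the longest. GC-rich genes tended to be lower too, with a median of 0.08 in the lowest of 20 GC classes and -0.07 in the highest.

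Of the 8 measured targets, 7 were lower in the overexpression library and 1, SMAD7, was higher. The ID genes had the largest shortfall among the targets with over 1000 counts: ID2 was at 0.506 times its control level and ID1 at 0.674 times. CCN1 and CCN2, the most abundant targets, were closer to control, with CCN1 at 0.813 times and CCN2 at 0.773 times. The log2 ratio of CPM plus 1, overexpression minus control, had a median of -0.51 over the 4 measured BMP targets, -0.33 over the 4 TGF-beta and YAP targets and 0.00 over all measured genes. On that scale 1 of the 8, ID2, was at least 1.5-fold lower, where 0.643% of all measured genes were. None was at least 1.5-fold higher, where 1.02% were. With a pseudocount of 0.1 CPM, 3 of the 8 were at least 1.5-fold lower, where 2.32% of all measured genes were. Since the genes were chosen on this contrast, nothing is read from these counts, nor from the rank or place of a member among all genes given below.

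**Figure D1:**
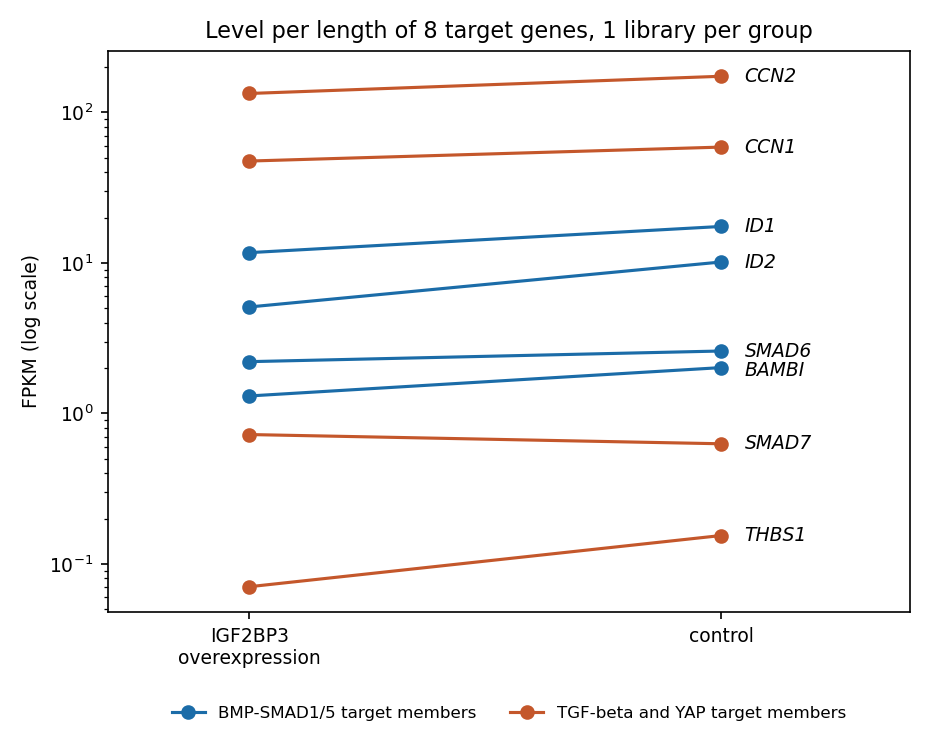
FPKM (fragments per kilobase per 1000000 counts, log axis) of the 8 measured targets in the overexpression library (left) and the control library (right), 1 point per library; ID3, with 1 count in all, is not drawn. All lines but that of SMAD7 lie lower at the overexpression library, and the order of the levels is the same in both, from CCN2 (133 FPKM in overexpression, 174 in control) to THBS1 (0.0705 FPKM in overexpression, 0.154 in control).

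ID2 encodes an inhibitor of DNA binding that holds E proteins inactive (ENSG00000115738; chromosome 2, 8678845 to 8684453, plus strand, GENCODE 29 on GRCh38). It had 541 counts, 11.3 CPM and 5.09 FPKM in the overexpression library, against 968 counts, 22.3 CPM and 10.1 FPKM in the control library. The ratio of 0.506 had a 95% exact (Clopper-Pearson) counting interval of 0.434 to 0.588. Intervals were computed from halved counts, because an excess of even counts in both libraries (63.3% of counts from 1 to 20 in overexpression, 64.1% in control) could come from counting each mate of a pair; they cover counting error only. The log2 ratio of ID2, -0.92, was the 47th lowest of 14157. ID2-AS1, an antisense gene that overlaps ID2, had 117 counts in the overexpression library and 176 in control; reads of the 2 genes, too, may not be separate.

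ID1 encodes a paralogue with the same role and is a direct SMAD1/5 target (ENSG00000125968; chromosome 20, 31605283 to 31606515, plus strand). It had 692 counts, 14.5 CPM and 11.7 FPKM in the overexpression library, against 929 counts, 21.4 CPM and 17.4 FPKM in control. Its ratio of 0.674 (0.585 to 0.777) had an interval that just overlapped that of ID2. ID1 was the more abundant per length in both libraries, at 2.30 times the FPKM of ID2 in overexpression and 1.72 times in control.

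ID3 encodes another protein of the family (ENSG00000117318; chromosome 1, 23557918 to 23559794, minus strand). It had 0 counts in the overexpression library and 1 in control, both under the floor of 3 counts (0.0627 CPM in overexpression, 0.0692 CPM in control), so no ratio is given. ID4, the fourth of the family and not among the 9, had 1486 counts, 31.0 CPM, in overexpression and 1855 counts, 42.8 CPM, in control, a ratio of 0.725 with an interval that began at 0.658 and ended below 1-fold. The counts of ID1 to ID4 together came to 56.8 CPM in the overexpression library and 86.6 CPM in control, a ratio of 0.656 (0.611 to 0.704). ID1, ID2 and ID4 were all lower in the overexpression library, and neither library held more than a trace of ID3.

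SMAD6 encodes an inhibitory SMAD that acts mainly on BMP receptors and SMAD1 (ENSG00000137834; chromosome 15, 66702228 to 66782848, plus strand). It had 906 counts, 18.9 CPM and 2.21 FPKM in the overexpression library, against 959 counts, 22.1 CPM and 2.60 FPKM in control. The ratio was 0.855, with an interval that ended at 0.974, the closest to 1-fold among the BMP targets, and the interval did not overlap that of ID2. Its log2 ratio of -0.22 had 8.67% of all measured genes at or below it.

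BAMBI encodes a pseudoreceptor without a kinase domain that blocks type I receptors of TGF-beta, activin and BMP (ENSG00000095739; chromosome 10, 28677342 to 28682939, plus strand). It had 134 counts, 2.80 CPM and 1.30 FPKM in the overexpression library, against 186 counts, 4.29 CPM and 2.01 FPKM in control. The ratio of 0.652 (0.469 to 0.902) was near that of ID1, but with fewer counts its interval was wider and overlapped those of ID1, ID2 and SMAD6. The low depth of BAMBI leaves its order among the BMP targets unsettled.

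CCN2, formerly CTGF, encodes a secreted matricellular protein that binds integrins (ENSG00000118523; chromosome 6, 131948176 to 131951373, minus strand). It had 14976 counts, 313 CPM and 133 FPKM in the overexpression library, against 17529 counts, 405 CPM and 174 FPKM in control. The ratio was 0.773, with an upper bound of 0.798. Among the 4191 genes with at least 5000 counts, its log2 ratio of -0.37 was the 9th lowest, although 2.38% of all measured genes were at or below it. Genes of high count spread less around 0, so the same ratio stands further out among them. The gene was chosen with this contrast known, so nothing is read from its rank. The CCN2 window shown above is the one with 3 GGAATG words.

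CCN1, formerly CYR61, encodes the sister protein (ENSG00000142871; chromosome 1, 85580761 to 85583962, plus strand). It had 8426 counts, 176 CPM and 47.5 FPKM in the overexpression library, against 9383 counts, 217 CPM and 58.7 FPKM in control, a ratio of 0.813 (0.780 to 0.848). Its log2 ratio of -0.30 was the 16th lowest among the genes with at least 5000 counts. CCN2 stood at 2.81 times the FPKM of CCN1 in overexpression and 2.95 times in control, and the intervals of their ratios overlapped. The pair summed to 489 CPM in overexpression and 621 CPM in control.

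THBS1 encodes thrombospondin 1, a matrix glycoprotein that can activate latent TGF-beta (ENSG00000137801; chromosome 15, 39581079 to 39599466, plus strand). It had 31 counts, 0.648 CPM and 0.0705 FPKM in the overexpression library, against 61 counts, 1.41 CPM and 0.154 FPKM in control. The ratio of 0.460 was the lowest of the 8 and had the widest relative interval, 0.233 to 0.875. On the log2 scale of CPM plus 1 it was -0.55, which understates the difference of so low a gene. THBS1 overlaps FSIP1 on the opposite strand, which had 85 counts in overexpression and 61 in control. Reads of THBS1 and FSIP1 may not be separate either, and with so few counts this bears on the ratio of THBS1. CCN1 was at 673 times the FPKM of THBS1 in overexpression and 381 times in control, so these 2 genes sat far apart in level.

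SMAD7 encodes the inhibitory SMAD of broader action, which blocks TGF-beta and BMP receptors (ENSG00000101665; chromosome 18, 48919853 to 48952052, minus strand). It had 137 counts, 2.86 CPM and 0.723 FPKM in the overexpression library, against 107 counts, 2.47 CPM and 0.628 FPKM in control. The ratio was 1.16 (0.799 to 1.69), with an interval on both sides of 1-fold, so no difference was detectable at this depth. The 2 inhibitory SMADs lay on opposite sides of 1-fold, with overlapping intervals.

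**Figure D2:**
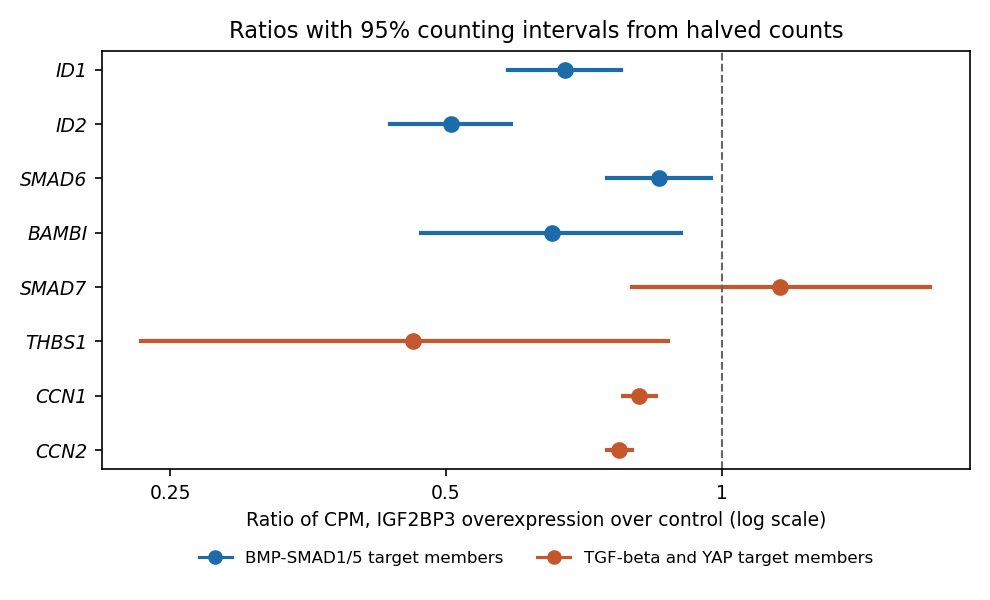
Ratio of CPM, overexpression over control (log axis), of the 8 measured targets, with 95% exact counting intervals from halved counts as bars; the dashed line is 1-fold. The intervals of 7 targets end below 1-fold, and that of SMAD7, 0.799 to 1.69, spans it.

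The intervals of 7 of the 8 lay wholly below 1-fold, which held for 10.9% of all measured genes; again nothing is read from this count. Of the 28 pairs of targets, 7 had intervals that did not overlap. The share of such pairs among all measured genes was not computed, so nothing is read from this number. The interval of ID2 lay below those of SMAD6, SMAD7, CCN1 and CCN2, that of ID1 below those of SMAD7 and CCN1, and that of CCN2 below that of SMAD7. These intervals cover counting error only, so whether the genes differ from one another beyond these 2 libraries was not tested. Intervals of the 2 groups of targets overlapped in part: those of ID1, SMAD6 and BAMBI overlapped those of THBS1, CCN1 or CCN2. Of the BMP targets, ID2 alone had an interval below those of both CCN genes. Around the 9 genes, no measured gene within 1 Mb differed 2-fold or more on the log2 scale of CPM plus 1. The share of all measured genes that differed 2-fold was not computed. At the looser 1.5-fold threshold, 0.643% of all measured genes were lower and 1.02% higher. Nothing is read from the absence of 2-fold different genes near the 9 genes. The authors' deposited table gives log2 fold changes of -0.99 for ID2, -0.58 for ID1, -0.63 for BAMBI, -0.23 for SMAD6, -0.38 for CCN2, -0.31 for CCN1, -1.13 for THBS1, 0.20 for SMAD7 and -3.24 for ID3; the last rests on a single count.

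**Figure D3:**
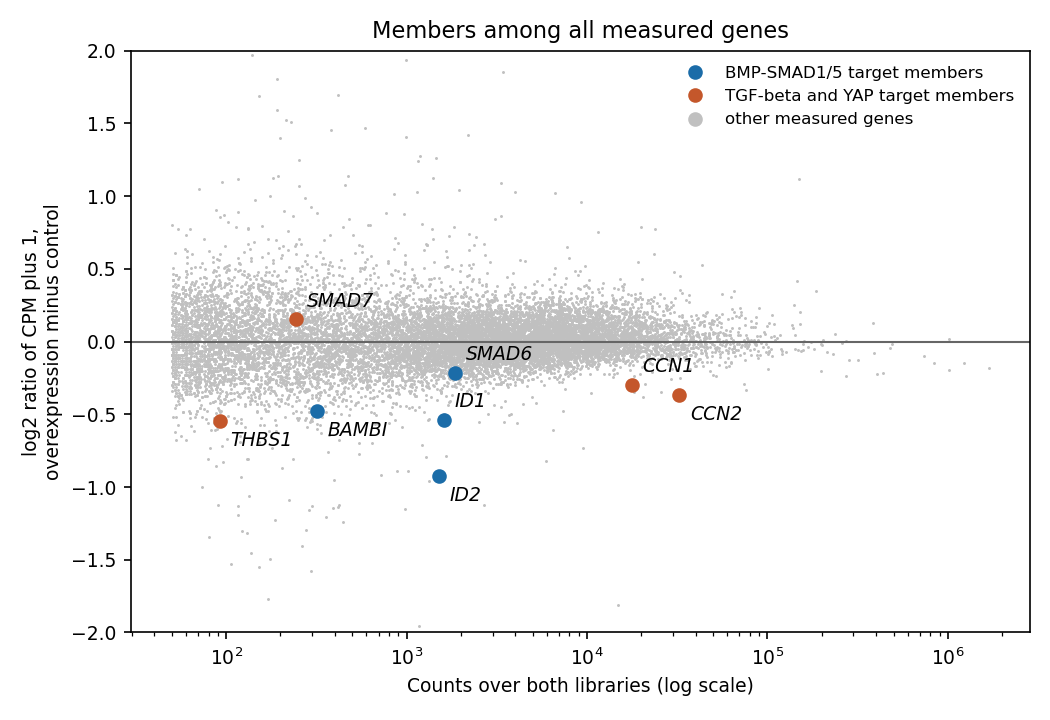
Log2 ratio of CPM plus 1, overexpression minus control, against counts over both libraries (log axis) for the 14157 measured genes (grey) and the 8 targets (coloured); 34 genes lie beyond the vertical axis. CCN1 and CCN2 lie at the lower edge of the cloud of genes with high counts, and ID2, at -0.92, lies below nearly all genes of like count. The targets were chosen with this contrast known, so nothing is read from their place.

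Likeness to ID1 and ID2 was measured as the distance between genes in log2 CPM plus 1 over the 2 libraries, which are too few to show a shared pattern. The genes nearest to ID2 were CBS, at 13.3 CPM in overexpression and 23.6 CPM in control, the pseudogene SUMO2P21 at 9.78 CPM in overexpression and 20.0 CPM in control and GGNBP2 at 10.2 CPM in overexpression and 18.4 CPM in control. Those nearest to ID1 were SCRIB at 14.6 CPM in overexpression and 21.0 CPM in control, SMIM3 at 15.8 CPM in overexpression and 20.7 CPM in control and the pseudogene RPL14P1 at 15.8 CPM in overexpression and 21.8 CPM in control. CBS and both pseudogenes have near-identical copies, so their counts are uncertain.

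The other genes of these pathways were grouped by role, in lists that were also chosen with earlier results of these data known. Counts of genes below or above 0 in these lists are description only, and nothing is read from them. None of their ligands was at least 1.5-fold different. The list of BMP ligands had 6 measured genes, of which BMP1 is no ligand but a protease that cleaves procollagens and the BMP antagonist chordin. Of the 6, 4 had a log2 ratio below 0, all of them ligands, as did 48.9% of all measured genes; BMP1 was at 0.05, and the median was -0.11. BMP7 and BMP1 were the highest in FPKM, with BMP7 at 29.2 CPM in overexpression and 32.3 CPM in control and BMP1 at 33.5 CPM in overexpression and 32.3 CPM in control. GDF6 was at -0.24, BMP8A at -0.19 and BMP6 at 0.15 on the log2 scale. The canonical BMP2 had 0 counts in overexpression and 2 in control. Of the 5 measured TGF-beta and activin ligands, 3 were below 0, with a median of -0.05; TGFB1 was at 59.2 CPM in overexpression and 62.5 CPM in control, and GDF11 at 42.6 CPM in overexpression and 44.1 CPM in control. The inhibin subunits INHA and INHBB were at -0.29 and 0.19.

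The receptor lists held more genes above 0 than below. All 5 measured receptors and co-receptors of TGF-beta and activin had log2 ratios above 0, with a median of 0.26, where 51.1% of all measured genes were above 0. TGFBR1, the type I receptor, was at 60.6 CPM in overexpression and 52.8 CPM in control, a ratio of 1.15 (1.06 to 1.24), and TGFBR2, the type II receptor, at 25.2 CPM in overexpression and 21.0 CPM in control, a ratio of 1.20 (1.06 to 1.36). ACVR1C had a log2 ratio of 0.41, with a ratio interval of 1.08 to 1.83, and the co-receptor TGFBR3 a ratio of 1.25 with a lower bound of 1.04. Among the 8 measured BMP receptors and co-receptors, 6 were above 0 and the median was 0.06. The intervals of 3 lay above 1-fold and those of the other 5 spanned it. Of the 14157 measured genes, 2253 had an interval wholly above 1-fold. BMPR2 was at 115 CPM in overexpression and 96.5 CPM in control, a ratio of 1.20 (1.13 to 1.27), ACVR2B at a ratio of 1.27 (1.06 to 1.53) and the repulsive guidance molecule RGMA at 0.827 (0.619 to 1.10). BMPR1A and the co-receptor NEO1, the highest in control FPKM, had log2 ratios of 0.11 and 0.01.

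None of the measured secreted antagonists and SMADs with their cofactors, as listed, was at least 1.5-fold different. Of the 5 measured genes in the list of secreted BMP and activin antagonists, 3 were below 0. Membership of that list does not settle the role of each gene. TWSG1 was at 0.15, the activin-binding FSTL3 at -0.12 and KCP at -0.04 on the log2 scale. TWSG1 and FSTL3 were the highest in control FPKM. The BMP antagonists noggin (NOG) and gremlin 1 (GREM1) were not analysed here. Genes for the latency and activation of TGF-beta had a median near 0 over 8 genes, 4 below 0 and 4 above, with the latent TGF-beta binding protein LTBP1 at 0.31, the integrin ITGAV at 0.20 and LTBP2 at -0.13; ITGAV and FURIN, at 0.04, were the highest in control FPKM. Of 18 SMADs and cofactors, 12 were above 0 and 6 below, with a median of 0.07. SMAD1 was at 28.5 CPM in overexpression and 27.0 CPM in control and SMAD5 at 120 CPM in overexpression and 111 CPM in control. SMAD3 was at 61.9 CPM in overexpression and 49.8 CPM in control, a ratio of 1.24 (1.15 to 1.35). The SMAD4 ubiquitin ligase TRIM33 was at a log2 ratio of 0.27 and the corepressor TGIF1 at -0.17; STRAP and SKIL, the highest in control FPKM, were at -0.01 and 0.08.

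**Figure D4:**
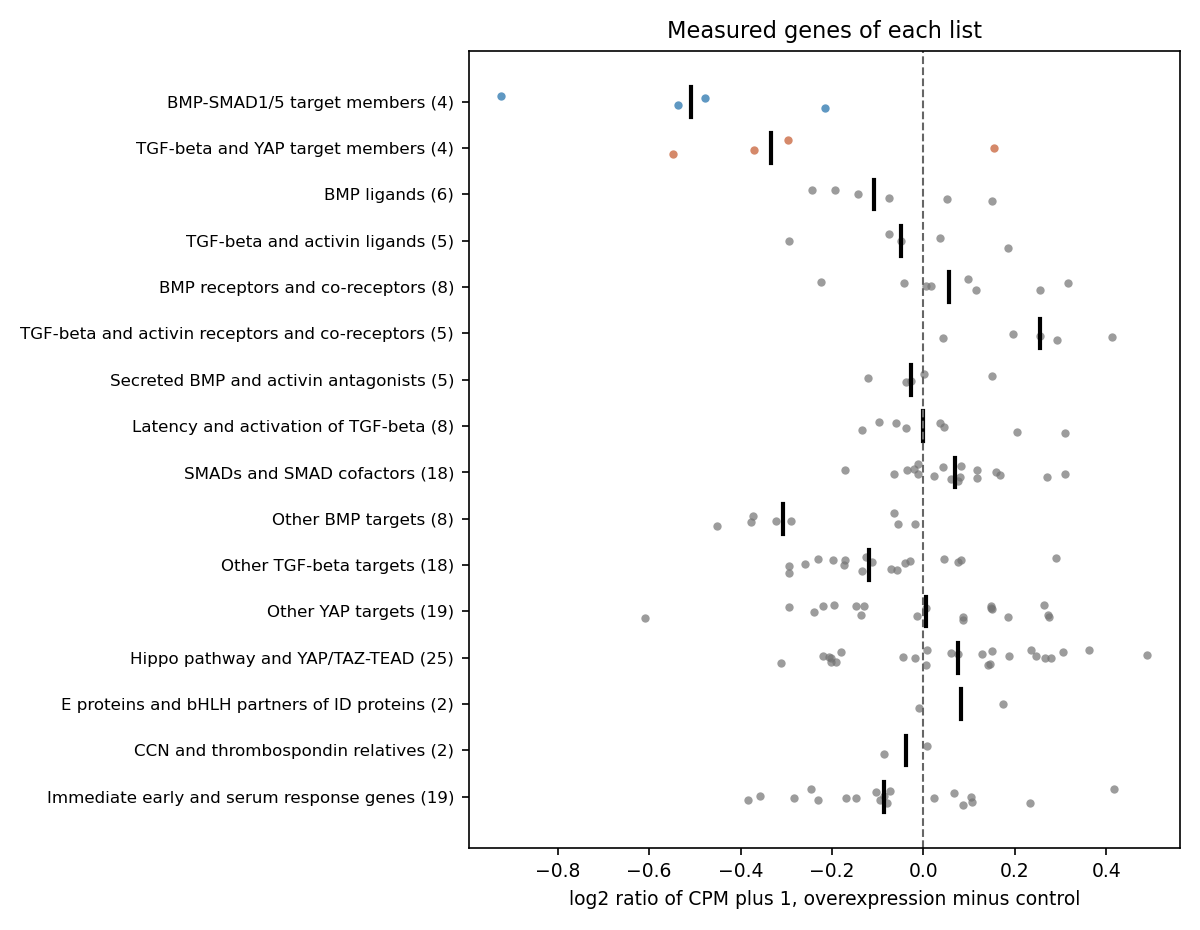
Log2 ratio of CPM plus 1, overexpression minus control, of each measured gene (points) by list, with the list's median (bar) and its number of measured genes in brackets; some genes stand in more than 1 list. The medians of the BMP targets outside the 9 genes (-0.31) and of the TGF-beta receptors (0.26) lie furthest from 0 after those of the 9 genes.

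Most further measured targets of BMP and TGF-beta had log2 ratios below 0, though most of their intervals spanned 1-fold. These lists were chosen with earlier results known, so nothing is read from the number below 0. All 8 measured BMP targets outside the 9 genes had log2 ratios below 0, where 48.9% of all measured genes were, with a median of -0.31 and none at least 1.5-fold lower. After ID4, at -0.45, came HEY2, a repressor of the HES family, at -0.38 from 40 counts in overexpression and 60 in control, and the homeobox gene DLX2, with 10.5 CPM in overexpression and 13.9 CPM in control, at -0.37. GATA2 was at 33.1 CPM in overexpression and 40.6 CPM in control. Intervals wholly below 1-fold were found for ID4, DLX2 and GATA2, and those of the remaining 5 spanned 1-fold; 10.9% of all measured genes had such an interval below 1-fold. Of the 18 measured TGF-beta targets outside the 9, 14 were below 0 and 4 above, with a median of -0.12. The intervals of 5 lay wholly below 1-fold and those of 2 wholly above, and the rest spanned 1-fold. The actin-binding TAGLN was at 207 CPM in overexpression and 254 CPM in control, a ratio of 0.814 (0.784 to 0.846). COL5A1 was at -0.29 and the CDK inhibitor CDKN1A at 0.29.

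YAP targets outside the 9 genes were split, 9 below 0 and 10 above among 19, with a median of 0.01. ANKRD1, a nuclear ankyrin-repeat protein and the highest of them in control FPKM, was at 736 CPM in overexpression and 902 CPM in control, a ratio of 0.816 (0.799 to 0.832), close to those of CCN1 and CCN2. IGFBP3, which binds IGFs and is also induced by TGF-beta, was the only one at least 1.5-fold different, at 56.5 CPM in overexpression and 86.7 CPM in control, a ratio of 0.651 (0.607 to 0.699). Against these, MYOF was at 441 CPM in overexpression and 364 CPM in control, a ratio of 1.21 (1.18 to 1.25). AMOTL2 was at a ratio of 0.857 (0.799 to 0.920), and LATS2, another standard readout, was at 33.0 CPM in overexpression and 32.9 CPM in control. Among transcripts of the pathway itself, YAP1 and TEAD1 were at like levels in both libraries: YAP1 at 186 CPM in overexpression and 185 CPM in control, and TEAD1 at 242 CPM in overexpression and 230 CPM in control. WWTR1, which encodes TAZ, was at 166 CPM in overexpression and 141 CPM in control, and TEAD4 at 36.0 CPM in overexpression and 44.9 CPM in control, a ratio of 0.802 (0.731 to 0.879). Of the 25 Hippo pathway genes 16 were above 0 and 9 below, with a median of 0.08. The intervals of 14 lay wholly above 1-fold and those of 6 wholly below, against 2253 and 1547 of the 14157 measured genes. AMOT at 0.49, VGLL4 at 0.36 and TEAD4 at -0.31 were furthest from 0. MOB1A, the highest in control FPKM, was at 0.06.

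The E proteins that ID proteins bind were measured as TCF3, at 94.8 CPM in overexpression and 95.5 CPM in control, and TCF12, at 130 CPM in overexpression and 115 CPM in control, a ratio of 1.13 (1.07 to 1.19); TCF4 had 8 counts in overexpression and 2 in control. Of the relatives of the CCN and thrombospondin genes only THBS3, at a log2 ratio of -0.09, and COMP, at 0.01, were measured. CCN1, CCN2, ID1 and THBS1 are also known to answer to serum, so immediate early and serum response genes were set beside them. Of 19 measured, 12 were below 0, where 48.9% of all measured genes were, and 7 above, with a median of -0.09. The intervals of 7 lay wholly below 1-fold and those of 2 wholly above, against 1547 and 2253 of the 14157 measured genes. FOSB was at 0.42, the TGF-beta-inducible repressor KLF10 at -0.38 and the stress factor ATF3 at -0.36. FOS was at 3.84 CPM in overexpression and 3.51 CPM in control, EGR1 at 31.4 CPM in overexpression and 34.8 CPM in control, and VCL and FOSL1, the highest in control FPKM, had log2 ratios of 0.11 and -0.08. The part of serum response, and of culture density, which the labels do not give, in the values of the 9 genes was not tested.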

How the data were processed

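Poly(A) RNA of 2 cultures was sequenced, 1 per group. Whole-number counts per gene, FPKM values and a log2 fold change are the authors' values, as deposited, per the file headers; the deposited FPKM is the count per kilobase of gene per 1000000 listed counts. The submitters' processing notes name GRCh38 as the build; aligner, counter, strand setting and annotation were not given in the sources used here.

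Counts were scaled by TMM (edgeR 4.0.16, R 4.3.3). Ratios are of CPM, overexpression over control; log2 ratios are of CPM plus 1 for the 14157 genes that reached 50 counts in the 2 libraries together. The 95% Clopper-Pearson intervals came from the share of halved counts in each library and, without molecular identifiers, cover counting error only. Scripts were tested on simulated data.

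The members and lists were chosen with earlier results of these data known. From each list the text names genes at least 1.5-fold different, the 3 furthest from 0 and the 2 highest in control FPKM, and further genes as standard readouts, picked after their values were seen. A gene that this rule names is not reported here. Positions came from GENCODE 29 (GRCh38), which held 94.2% of gene IDs, and promoters from RefSeq (GRCh38.p14). Alternatives were other scalings (DESeq2 1.42.0 size factors, library totals), FPKM plus 1, other pseudocounts and count minimums, and, added after seeing the data, trends in gene length or GC content removed (a GC value existed for 97.5% of measured genes). Python 3.11.15, scipy 1.17.1 and matplotlib 3.10.9 were used.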

Additional observations from a re-analysis of the deposited data

How the results depend on the processing

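Under the 9 alternatives tried, the 8 measured targets kept the sign of their log2 ratio wherever they passed the count minimum; THBS1 did not pass one of 200. ID2 ranged from -0.98 to -0.75, ID1 from -0.57 to -0.44, BAMBI from -0.60 to -0.25, SMAD6 from -0.24 to -0.17, CCN2 from -0.38 to -0.33, CCN1 from -0.31 to -0.28 and SMAD7 from 0.07 to 0.21. THBS1 ranged from -1.01 with a pseudocount of 0.1 CPM to -0.18 with 5 CPM and -0.11 with FPKM plus 1, since the constant outweighs so low a value. The median of the TGF-beta and YAP targets was -0.21 with FPKM plus 1, against -0.33. The share of all measured genes at least 1.5-fold lower was 0.353% with FPKM plus 1, 2.32% with 0.1 CPM and 0.261% with 5 CPM, and the share at least 1.5-fold higher 0.537%, 2.97% and 0.445%, because the constant sets how far low genes can differ. Of the 8 targets, 1 was at least 1.5-fold lower on the log2 scale of CPM plus 1, but 3 (ID2, BAMBI and THBS1) were with a pseudocount of 0.1 CPM. With the trend in gene length removed, 2 (ID2 and THBS1) were, where 0.671% of all measured genes were. Intervals from counts as deposited were narrower for all 8; those of 7 lay below 1-fold and that of SMAD7 spanned it, as with halved counts. Depth limits BAMBI, SMAD7 and THBS1 most. No paired analysis was possible because each group has 1 library.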
